A study of Homo sapiens with 8 samples.

Results

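The genes described here, called feedback genes below, are 10 negative regulators and transcription factors that the ERK signalling pathway switches on: DUSP4, DUSP5, DUSP6, SPRY2, SPRY4, SPRED1, SPRED2, ETV4, ETV5 and PHLDA1. They were taken by symbol from RNA sequencing tables that hold 40693 gene symbols, and all 10 were found and passed the expression filter of the test. The libraries came from human colorectal adenocarcinoma lines: untreated SW480 (1 library, labelled Dukes' stage B), untreated SW620 (1 library, Dukes' stage C), SW620 carrying a control hairpin (shNC, 3 libraries) and SW620 carrying a hairpin against the endoderm transcription factor FOXA2 (shFOXA2, 3 libraries). Both hairpin groups were lentiviral stable populations under a U6 promoter, selected with puromycin and marked with mCherry, so these traits are shared by control and knockdown. The labels list 2 target sites against FOXA2, and the shFOXA2 titles point to the first without spelling it out. Nothing in the labels ties the 3 libraries of a group to separate cultures, so p-values below measure only the spread between these libraries.

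ERK is the last kinase of the cascade that runs from growth factor receptors through RAS, RAF and MEK. Active ERK induces its own brakes: dual-specificity phosphatases of the DUSP family remove the activating phosphates from ERK, Sprouty (SPRY) proteins block RAS activation below receptors, and SPRED proteins bring the RAS inhibitor neurofibromin to the membrane. ETV4 and ETV5 are ETS transcription factors of the PEA3 group that carry the ERK signal to other genes, and the repressor CIC holds several genes of this set down until ERK inactivates it. Because these genes follow ERK activity, they are often read as its transcriptional output. SW480 and SW620 come from the primary tumour and a lymph node metastasis of 1 patient.

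Library depth was 72323506 counts in SW480, 95935348 in SW620, 12133652 to 13076566 in shNC and 7478411 to 12068790 in shFOXA2. Mitochondrial genes took 11.7% and 11.1% of counts in the untreated libraries and 4.46% to 4.82% in the hairpin libraries. FOXA2, the targeted gene, fell by 0.91 on the log2 scale in shFOXA2 (SE 0.09, edgeR adjusted p = 6.88e-10), from 18.9 to 20.2 RPKM (counts scaled by gene length and by library total) in shNC to 8.52 to 11.5. Of the colon epithelium markers only CDX1 was at 0 in all 6 hairpin libraries, and the summed level of the 10 markers was 8120 to 8600 CPM (counts scaled to the library total) in shFOXA2 and 8190 to 8890 in shNC. The fibroblast and endothelium markers found (9 of 10) summed to 16.7 to 21.9 CPM in shFOXA2 and 11.5 to 13.3 in shNC, with COL1A2 and COL3A1 at 0 in all 6. The 2 of them that were tested both rose in shFOXA2 (edgeR adjusted p under 0.05). These were COL1A1 (log2 fold change 1.06) and LUM (0.53, at 93 to 143 counts per hairpin library). The 8 leukocyte markers summed to 32.0 to 39.4 CPM in shFOXA2 and 22.6 to 28.5 in shNC, with CD3E at 0 in all 6, and their part in the results was not tested. Of the 6 leukocyte markers tested for a change, LYZ (0.85) and CD4 (0.92) rose and 4 did not pass. The 6 liver markers summed to 21.7 to 22.8 CPM in shFOXA2 and 20.6 to 24.3 in shNC, with TTR at 0 in all 6. Of the 4 liver markers tested, FGA rose (1.82), ALB fell (-1.04) and 2 did not pass. SERPINA1, which did not pass, had 141 to 275 counts per hairpin library. Replicate 1 stood somewhat apart in each hairpin group: pairs with it had a chi-square per degree of freedom of 3.97 to 4.59, and the other pairs 1.67 and 1.74.

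The hairpin targets are shown because a short match to the seed of a hairpin can lower a transcript other than the intended one. Capitals mark target bases 14 to 20, which pair with bases 2 to 8 of a guide strand complementary to the whole target.
FOXA2 hairpin 1 target: gaacggcatgaacACGTACAt
control hairpin target: caacaagatgaagAGCACCAa

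The stretch ACGTACA occurred in an annotated 3′ untranslated region of 0 of the 10 feedback genes, against 2.95% of the 13133 tested genes with such a region (GENCODE v29). AACACGT and ACACGTA, neighbouring stretches of the same target that an earlier ranking of these data had picked, were also in 0 of 10 (4.73% and 3.43% of all). AGCACCA of the control hairpin was in DUSP4 and SPRED1 (17.1% of all), and 1 of the 2 sites in SPRED1 is shown with its flanks as the example outside DUSP4.
SPRED1 site: gtggagcttcAGCACCAcctactggat

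Promoter stretches are shown for DUSP6, SPRED2, SPRY2 and PHLDA1, the first pair because each holds a forkhead-type motif and the second because both genes had a higher level in SW620 than in SW480 by more than 4-fold. Each is the 250 bases before a start site in RefSeq (GRCh38.p14), written 5′ to 3′ on the minus strand that carries the gene, with motif matches in capitals. They lie at chr12:89352502-89352751 (DUSP6), chr2:65432600-65432849 (SPRED2), chr13:80341127-80341376 (SPRY2) and chr12:76031777-76032026 (PHLDA1). The gene locations given below, from GENCODE v29, place some starts differently. By them the DUSP6 and PHLDA1 stretches lie inside the gene and the SPRED2 stretch overlaps it in part.
DUSP6: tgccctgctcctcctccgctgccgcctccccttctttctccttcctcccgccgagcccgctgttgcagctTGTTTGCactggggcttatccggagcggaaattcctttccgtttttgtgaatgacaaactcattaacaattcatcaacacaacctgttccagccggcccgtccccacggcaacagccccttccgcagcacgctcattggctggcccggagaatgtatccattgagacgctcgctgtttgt
SPRED2: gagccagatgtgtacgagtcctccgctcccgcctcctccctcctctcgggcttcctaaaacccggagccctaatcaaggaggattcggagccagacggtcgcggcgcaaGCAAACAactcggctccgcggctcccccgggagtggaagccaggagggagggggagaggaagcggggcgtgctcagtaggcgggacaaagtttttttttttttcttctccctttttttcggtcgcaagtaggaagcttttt
SPRY2: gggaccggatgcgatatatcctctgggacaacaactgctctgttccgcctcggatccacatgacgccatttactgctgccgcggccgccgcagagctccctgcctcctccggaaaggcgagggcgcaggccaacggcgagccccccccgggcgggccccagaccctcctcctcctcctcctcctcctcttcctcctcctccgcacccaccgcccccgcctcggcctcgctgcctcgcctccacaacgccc
PHLDA1: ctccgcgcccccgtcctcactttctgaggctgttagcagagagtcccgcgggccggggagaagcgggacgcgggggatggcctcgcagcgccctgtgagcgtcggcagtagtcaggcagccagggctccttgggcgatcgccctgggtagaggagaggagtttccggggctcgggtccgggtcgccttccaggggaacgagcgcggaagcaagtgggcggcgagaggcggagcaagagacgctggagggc

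Promoter entries were read for 6 of the 10 genes (DUSP6, SPRY2, SPRY4, SPRED1, SPRED2 and PHLDA1), and both strands were searched. SPRY2 and SPRED2 had more than 1 stretch read. DUSP4, DUSP5, ETV4 and ETV5 were not read. They had the largest log2 fold changes of the set in absolute size in shFOXA2, so the search does not cover them. The forkhead motif, searched as TGTTTAC, also as TGTTTGC, and in forms with A as the second base, namely TATTTAC and also TATTTGC, matched once in DUSP6, 174 to 180 bases before the start, and once in SPRED2, 135 to 141 bases before it, and it is present in 10.6% of 35116 promoter stretches of that length. The ETS motif GGAAGT (19.5% of all) matched in the stretch before another start of SPRY2, 1 to 6 bases before it, and in no other stretch read. The CIC octamers TGAATGAA and TGAATGGA (2.19% of all), the AP-1 motif TGACTCA or its complement (4.20%), the cyclic AMP response element TGACGTCA (1.65%) and the serum response element (1.16%) had no match in these stretches. No 2 of these motifs overlapped in a match.

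With FOXA2 lowered, 7 of the 10 feedback genes rose, ETV5 fell, and SPRY4 and SPRED2 did not pass the test (edgeR quasi-likelihood test, adjusted p under 0.05 over all 16100 genes tested). Over all tested genes 39.0% passed, 19.2% higher and 19.8% lower. The largest rises were in the phosphatase DUSP5 and the transcription factor ETV4, and the other 5 were 1.31-fold or less. The median log2 fold change of the 10 genes was 0.19, beside 0.01 over all tested genes. In TMM-scaled CPM over the 6 hairpin libraries, the shFOXA2 libraries did not overlap the shNC libraries for 9 of the 10 genes, which was so for 48.7% of all tested genes. SPRED1 is counted among the 9 by a margin smaller than the printed digits, and with scaling over all 8 libraries its groups overlapped (42.7 CPM in shFOXA2 replicate 3 and 42.8 in shNC replicate 2). For each of the 9 genes, on the scale of the 6 libraries, a two-sided exact permutation test gave p = 0.1, the smallest that 3 against 3 allows.

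**Figure D1:**
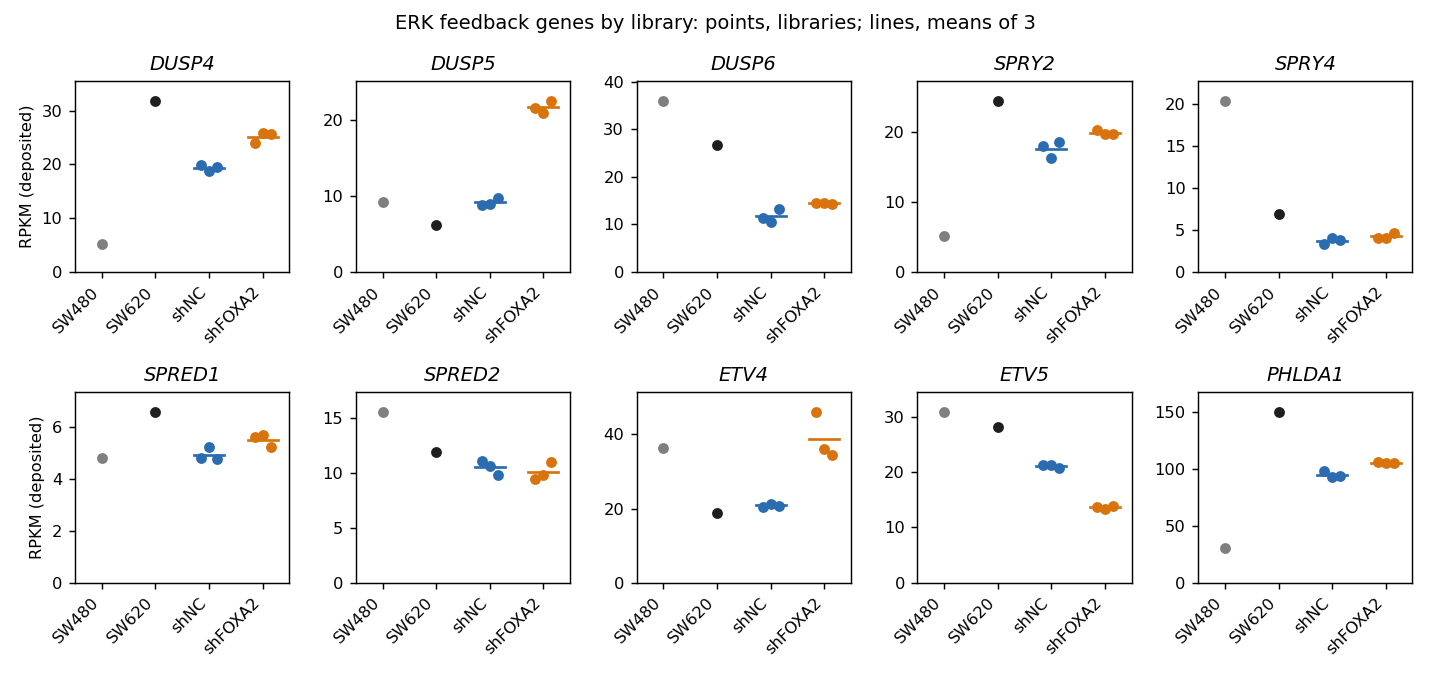
Deposited RPKM (vertical axis, starting at 0) of each feedback gene in the 8 libraries, grouped as SW480, SW620, shNC and shFOXA2 (horizontal axis); points are libraries and short lines are means of 3. DUSP5 separates shFOXA2 (21.0 to 22.5) from all other libraries, ETV5 is lowest in shFOXA2 (13.3 to 13.9), and DUSP4, SPRY2 and PHLDA1 are lowest in SW480.

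The phosphatases rose by different amounts. DUSP5, a nuclear phosphatase specific for ERK (ENSG00000138166.5, chromosome 10, 110497838 to 110511544, plus strand), measured 8.89, 9.01 and 9.77 RPKM in shNC replicates 1 to 3 and 21.7, 21.0 and 22.5 in shFOXA2. Every shFOXA2 library was more than 2-fold above every shNC library. The group means were 9.22 ± 0.477 and 21.7 ± 0.746 (SD, n = 3 each). DUSP5 thus had a log2 fold change of 1.25 (SE 0.07, edgeR adjusted p = 3.68e-18). In absolute size this exceeded the change of 98.3% of tested genes.

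DUSP4, a nuclear phosphatase that acts on ERK, JNK and p38 (ENSG00000120875.4, chromosome 8, 29333064 to 29350668, minus strand), was 19.8, 18.7 and 19.6 RPKM in shNC and 24.0, 25.9 and 25.6 in shFOXA2. The groups were apart by more than their spread, with a log2 fold change of 0.39 (SE 0.05, edgeR adjusted p = 4.15e-09). DUSP6, the cytoplasmic ERK phosphatase most used as a readout of the pathway (ENSG00000139318.7, chromosome 12, 89347232 to 89353271, minus strand), was 11.3, 10.5 and 13.3 RPKM in shNC and 14.6, 14.5 and 14.3 in shFOXA2. The shFOXA2 libraries were nearly equal, and shNC replicate 3 came close to them. The log2 fold change was 0.32 (SE 0.07, edgeR adjusted p = 0.000174), and it ran from 0.24 to 0.41 as single libraries were left out.

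ETV4 and ETV5, the PEA3 factors of the set, went in opposite directions. ETV4 (ENSG00000175832.8, chromosome 17, 43527844 to 43579620, minus strand) was 20.5, 21.3 and 20.7 RPKM in shNC and 46.0, 36.1 and 34.5 in shFOXA2. All shFOXA2 libraries were above all shNC libraries, and shFOXA2 replicate 1 was above the other two. The log2 fold change was 0.92 (SE 0.13, edgeR adjusted p = 0.00569), and 0.77 without shFOXA2 replicate 1. ETV5 (ENSG00000244405.3, chromosome 3, 186046308 to 186110318, minus strand) was 21.2, 21.2 and 20.7 RPKM in shNC and 13.6, 13.3 and 13.9 in shFOXA2. It was the only feedback gene that fell, by 0.61 on the log2 scale (SE 0.05, edgeR adjusted p = 3.80e-14), to 64.8% of the shNC mean.

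Exons of ETV4 overlap those of DHX8 on the other strand, and exons of ETV5 overlap those of DGKG on the same strand. No source used here says whether counting used strand, so shared reads cannot be told apart. DHX8 had 338 to 568 counts in shFOXA2 and 772 to 842 in shNC, and DGKG 225 to 363 and 368 to 415, against 975 to 2004 and 905 to 993 for ETV4 and 579 to 953 and 1456 to 1607 for ETV5. These counts are not scaled for depth, and the shFOXA2 libraries were shallower (7478411 to 12068790 counts) than the shNC libraries (12133652 to 13076566). They give sizes within a group and cannot be read as changes between groups.

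Among the RAS inhibitors only small changes were seen. SPRY2 (ENSG00000136158.6, chromosome 13, 80335976 to 80340951, minus strand) was 17.9, 16.3 and 18.5 RPKM in shNC and 20.2, 19.6 and 19.6 in shFOXA2, a log2 fold change of 0.19 (SE 0.06, edgeR adjusted p = 0.00996). The call was lost without shNC replicate 2, the lowest library (adjusted p = 0.129). SPRED1 (ENSG00000166068.8, chromosome 15, 38252326 to 38357249, plus strand) was 4.80, 5.21 and 4.75 RPKM in shNC and 5.61, 5.70 and 5.21 in shFOXA2, with a difference between groups about as large as the distances within them. Its log2 fold change was 0.17 (SE 0.07, edgeR adjusted p = 0.0456). It did not pass without shFOXA2 replicate 1 (adjusted p = 0.126), shFOXA2 replicate 2 (0.152), shNC replicate 1 (0.116) or shNC replicate 3 (0.191), nor with total-count scaling (0.0692), upper-quartile scaling (0.0619), no expression filter (0.161) or the DESeq2 Wald test (0.129).

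SPRY4 (ENSG00000187678.8, chromosome 5, 142310427 to 142326455, minus strand) was 3.34, 3.99 and 3.82 RPKM in shNC and 4.08, 3.99 and 4.60 in shFOXA2. The highest shNC library and the lowest shFOXA2 library were nearly equal, and the log2 fold change of 0.20 did not pass (SE 0.09, edgeR adjusted p = 0.0774; unadjusted 95% interval 0.02 to 0.38). SPRED2 (ENSG00000198369.5, chromosome 2, 65310851 to 65432637, minus strand) was 11.1, 10.6 and 9.80 RPKM in shNC and 9.44, 9.83 and 11.0 in shFOXA2, and the groups overlapped. Its log2 fold change was -0.05 (SE 0.07, edgeR adjusted p = 0.626), with an unadjusted 95% interval of -0.18 to 0.09.

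PHLDA1, a pleckstrin homology-like protein induced by growth factors (ENSG00000139289.9, chromosome 12, 76025447 to 76033932, minus strand), had the highest level of the set in all SW620 libraries, hairpin ones included. It was 98.3, 92.6 and 94.1 RPKM in shNC and 106, 105 and 105 in shFOXA2. The groups did not overlap, and the rise was small, with a log2 fold change of 0.16 (SE 0.04, edgeR adjusted p = 0.00195). An antisense gene that overlaps its exons, AC011611.3, had 910 to 1762 counts in shFOXA2 and 1569 to 1857 in shNC, against 6327 to 10310 and 9209 to 10376 for PHLDA1. These counts too are not scaled for depth and cannot be read as changes between groups.

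**Figure D2:**
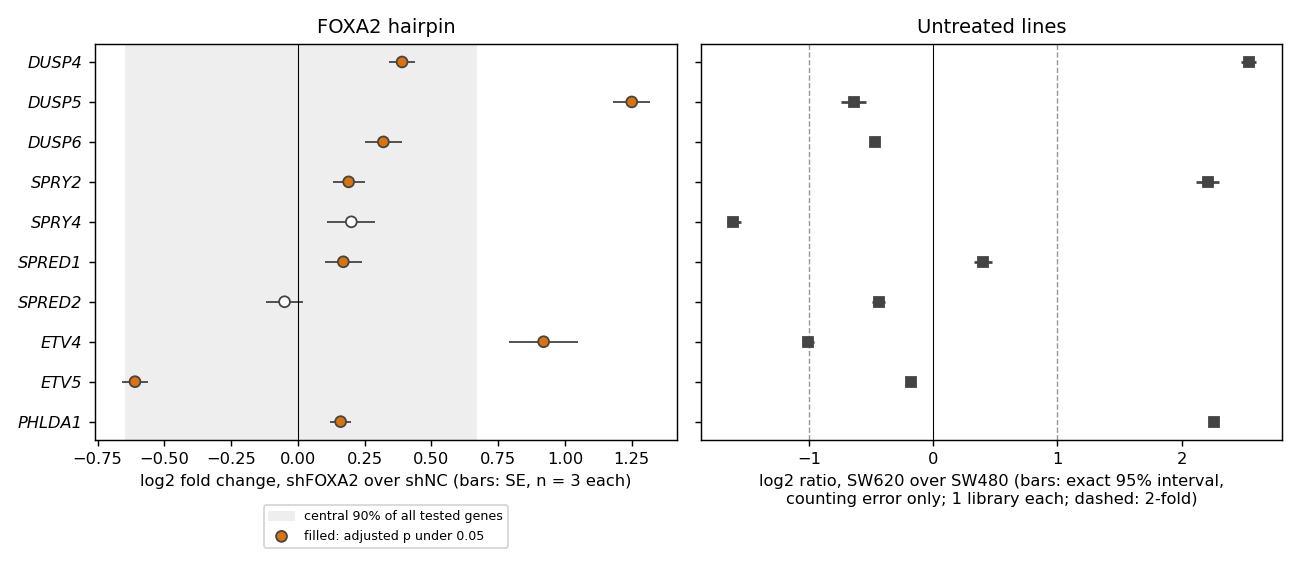
Left, log2 fold change of each feedback gene in shFOXA2 over shNC with its SE (n = 3 each); filled points passed an adjusted p of 0.05 and the grey band holds the central 90% of all tested genes. Right, log2 ratio of untreated SW620 over SW480 with exact 95% intervals that cover counting error only; dashed lines mark 2-fold. DUSP5 (1.25) and ETV4 (0.92) lie above the band on the left, and DUSP4 (2.54), PHLDA1 (2.26) and SPRY2 (2.21) stand farthest to the right in the untreated lines.

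The order of levels within the set changed with these shifts, as read from mean RPKM, a level per gene length. In shNC, ETV5 held rank 2 and DUSP5 rank 8 of 10, and in shFOXA2, ETV5 held rank 7 and DUSP5 rank 4. In shNC the neighbours ETV5 (20.7 to 21.2 RPKM) and ETV4 (20.5 to 21.3) overlapped, so their order was not resolved. In shFOXA2, DUSP6 (14.3 to 14.6) and ETV5 (13.3 to 13.9) were neighbours that did not overlap. SPRY4 was the lowest of the set in both hairpin groups.

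Ratios of 2 genes within a library do not depend on scaling between libraries. The log2 ratio of DUSP5 to ETV5 counts was -2.40, -2.38 and -2.23 in shNC replicates 1 to 3 and -0.48, -0.50 and -0.45 in shFOXA2. The groups were far apart relative to their spread, with a difference of 1.86 and a two-sided exact permutation p = 0.1, the smallest possible. The log2 ratio of DUSP6 to ETV5 was -1.24, -1.34 and -0.96 in shNC and -0.22, -0.21 and -0.28 in shFOXA2, a difference of 0.94 (exact permutation p = 0.1). DUSP5 and DUSP6 had each risen, and ETV5 fallen, without overlap of the groups in scaled CPM. The separation of both ratios and their permutation p-values follow from that and are no further support. In the untreated lines the first ratio was -2.88 in SW480 and -3.34 in SW620, and the second -0.11 and -0.39.

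**Figure D3:**
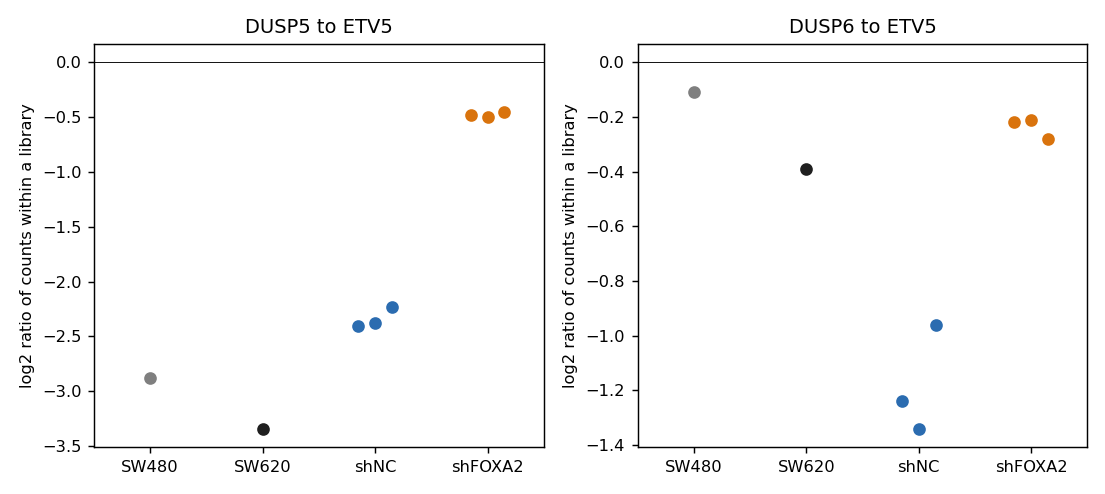
Log2 ratio of counts (vertical axis) of DUSP5 to ETV5 (left) and DUSP6 to ETV5 (right) in each of the 8 libraries, by group (horizontal axis). All 3 shFOXA2 libraries lie above all 3 shNC libraries in both panels, and for DUSP6 the untreated SW480 (-0.11) and SW620 (-0.39) lie nearer to shFOXA2 than to shNC.

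The untreated lines, with 1 library each and no test, were compared next. DUSP4, SPRY2 and PHLDA1 exceeded 2-fold in favour of SW620, and SPRY4 and ETV4 in favour of SW480. Together that is 5 of 10 genes. Among 21343 genes that reached 20 counts in either library, 31.5% were 2-fold or more apart, 16.0% with SW620 higher and 15.5% with SW480 higher. The median log2 ratio of the set was -0.31, beside 0.03 for all genes. Folds are ratios of TMM-scaled CPM, and intervals cover counting error only.

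The 3 genes higher in SW620 were so by similar amounts. DUSP4 was 5.27 RPKM in SW480 and 31.7 in SW620, 5.81-fold higher (95% interval 5.58 to 6.04). PHLDA1 was 30.3 and 150 RPKM, 4.78-fold higher (4.71 to 4.86). SPRY2 was 5.07 and 24.3 RPKM, 4.63-fold higher (4.36 to 4.92). The antisense gene AC011611.3 at PHLDA1 had 1633 counts in SW480 and 13660 in SW620, not scaled for depth. Its exons overlap those of PHLDA1, and reads shared by these genes cannot be told apart.

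SPRY4, the other Sprouty gene of the set, went the other way. It was 20.3 RPKM in SW480 and 6.91 in SW620, 3.05-fold higher in SW480 (2.93 to 3.16). ETV4 was 36.4 and 18.8 RPKM, 2.01-fold higher in SW480 (1.94 to 2.07). It fell just below 2-fold with total-count scaling (log2 ratio -0.96) and with total counts without mitochondrial genes (-0.97). In each of these settings 4 of the 10 genes were at least 2-fold apart, beside 6749 and 6739 of all genes. The remaining genes were closer: DUSP5 was 1.56-fold (1.45 to 1.67), DUSP6 1.39-fold (1.35 to 1.42), SPRED2 1.36-fold (1.31 to 1.41) and ETV5 1.14-fold higher in SW480 (1.11 to 1.16). SPRED1 was 1.32-fold higher in SW620 (1.26 to 1.38). PHLDA1 ranked 4 of 10 by RPKM in SW480 and first in SW620, and ETV4, at rank 1 in SW480, held rank 6 in SW620.

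Set beside untreated SW620, the control hairpin libraries were lower in 8 of the 10 genes and higher in DUSP5 and ETV4, with the untreated value outside the range of the 3 shNC libraries each time. Over 15875 genes the untreated value lay outside that range for 83.3%, and all 3 shNC libraries were lower for 40%, so lying outside the range is the general case. This comparison was added after the values were seen. Only DUSP6 was at least 2-fold apart, at 123 CPM in SW620 and 48.2 to 61.2 in shNC, 2.27-fold lower in shNC on average. At least 2-fold differences were seen in 11.8% of these genes, and 6.33% were that much lower in shNC. SPRY4 was 1.85-fold, DUSP4 1.63-fold and PHLDA1 1.57-fold lower in shNC, and DUSP5 was 1.51-fold higher. Hairpin delivery, sequencing depth and the share of mitochondrial counts all differ between these libraries and cannot be told apart.

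The other genes of the pathway were described from lists, to be read against the 39.0% of all tested genes that passed, 19.2% higher and 19.8% lower. Of 7 other MAP kinase phosphatases, 2 fell in shFOXA2 and 5 did not pass, a share of calls no higher than over all genes. Those that fell were the JNK and p38 phosphatase DUSP16 (log2 fold change -0.47, edgeR adjusted p = 0.000722) and the ERK phosphatase DUSP7 (-0.21, adjusted p = 0.0407). Leaving out any 1 library other than shNC replicate 1 brought that count to 1. In the list of further Sprouty and ETS partners, 3 of 7 fell and 4 did not pass. The 3 were the repressor CIC (-0.20) and its cofactors ATXN1 (-0.42) and ATXN1L (-0.15). ATXN1 went from 5.01 ± 0.0894 to 3.71 ± 0.170 RPKM (n = 3 each; edgeR adjusted p = 3.46e-08).

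Of 12 ligands tested among 16 listed, 8 rose, 1 fell and 3 did not pass, with a median log2 fold change of 0.47, where 19.2% of all tested genes rose. The EGF receptor ligands EREG (2.10) and AREG (2.20) rose most by p-value, together with the endocrine fibroblast growth factor FGF19 (0.50, from 69.9 ± 0.266 to 98.1 ± 1.01 RPKM, n = 3). AREGB, a copy of AREG listed separately, had a log2 fold change of 2.22, and how reads were divided between the copies is not known. IGF2, the 1 ligand that fell (-1.35), was at 0.494 RPKM or less in both groups. In the untreated lines EREG was 17.0-fold (10.6 to 28.9) and the ligand HBEGF 6.46-fold (5.34 to 7.87) higher in SW620, and IGF2 14.6-fold (13.4 to 16.0) higher in SW480.

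Of 11 receptors, 3 rose, 2 fell and 6 did not pass, near the shares over all genes. Among those called were the fibroblast growth factor receptor FGFR1 (0.52), which rose, and ERBB2 (-0.28), which fell. EGFR also rose (2.29), from 0.0260 ± 0.0119 to 0.130 ± 0.0329 RPKM (n = 3), a very low level at 2 to 24 counts per hairpin library. It was 831-fold (503 to 1480) higher in SW480, with 9074 counts against 15, while the hepatocyte growth factor receptor MET was 8.32-fold (7.94 to 8.73) higher in SW620. Of 8 adaptors and exchange factors, the phosphatase PTPN11 fell (-0.14) and SOS2 (0.32) and GAB2 (0.26) rose, a count of 3 that dropped to 1 without shFOXA2 replicate 1 or without shNC replicate 1. The exchange factor RASGRP3 was 50.1-fold (30.1 to 90.1) higher in SW480.

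Of 14 genes for RAS, RAF, MEK, ERK and their scaffolds, 3 rose, 1 fell and 10 did not pass, beside the 39.0% called over all genes, and the median log2 fold change was 0.05. NRAS (0.42), BRAF (0.37) and the scaffold SHOC2 (0.22) rose and HRAS fell (-0.45). MAP2K1 (0.02) and MAP2K2 (0.04), which encode MEK, and the ERK gene MAPK3 (0.06) had edgeR adjusted p-values of 0.622 to 0.819 and were among those that did not pass. Of 15 inhibitors of RAS and receptors, 7 rose and 3 fell. RASA2, a RAS GTPase-activating protein, rose (0.65), and the related DAB2IP (-0.50) and RASAL1 (-0.54) fell. The ubiquitin ligase gene CBLB was 4.89-fold (4.19 to 5.75) higher in SW620, and the cytokine signalling inhibitor SOCS3 was 4.62-fold (3.67 to 5.88) higher in SW480.

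Of 20 substrates and immediate early genes, 9 rose, 4 fell and 7 did not pass, with a median of 0.16. The AP-1 subunit FOSL1 rose (1.05, from 42.9 ± 0.427 to 88.0 ± 7.43 RPKM, n = 3), as did EGR2 (0.88), and the serum response factor SRF fell (-1.31, from 14.4 ± 0.674 to 5.72 ± 0.460). Without shFOXA2 replicate 3 the count was 4 higher and 3 lower. Of 17 delayed ERK targets outside the feedback set, 10 rose and 1 fell, with a median of 0.46. EMP1 (1.90), the ephrin receptor EPHA2 (0.58) and the chromatin protein HMGA2 (1.09) rose, and the gene that fell was the cyclin CCND1 (-0.52, edgeR adjusted p = 2.77e-13).

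In the untreated lines, EGR2 was 21.4-fold (15.6 to 30.2) higher in SW620, and the ETS factor ELK3 7.82-fold (7.30 to 8.40) and FOS 7.36-fold (6.67 to 8.14) higher in SW480. Among delayed targets the chemokine gene IL8 was 29.2-fold (26.1 to 32.7) higher in SW620. The neurosecretory gene VGF was 40.6-fold (29.0 to 58.6) and EPHA4 4.50-fold (4.18 to 4.84) higher in SW480. Of the 16 delayed targets with enough counts, SW620 exceeded SW480 by 2-fold or more in 1 and the reverse held in 4.

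**Figure D4:**
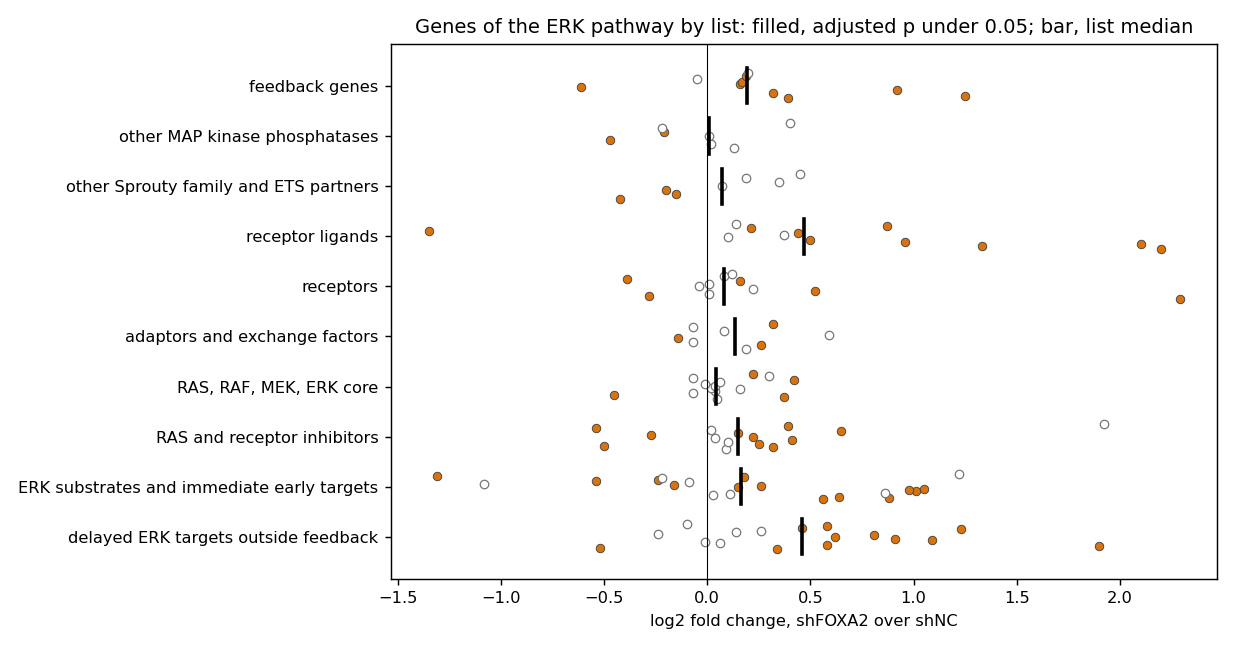
Log2 fold change in shFOXA2 over shNC (horizontal axis) of every tested gene of the pathway lists (vertical axis); filled points passed an adjusted p of 0.05 and black bars are list medians. The medians of the ligands (0.47) and delayed targets (0.46) lie farthest right, and that of the RAS to ERK cascade (0.05) is near 0.

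Genes with the pattern most like DUSP6 and most like ETV5 over the 8 libraries were sought among 12675 genes by Pearson's r of log2 CPM, as a description. The points share 4 groups and differ in depth. The closest to DUSP6 were KMT2E (r = 0.996), REST (0.989), AC004893.11 (0.988), ATM (0.988) and NF1 (0.987). The closest to ETV5 were SH3BP4 (r = 0.996), NCAPH (0.995), FAM161A (0.995), ZFP90 (0.993) and SEMA6B (0.993). None of the other 9 feedback genes was among the 5 closest to either gene. A list of 5 from so many genes says little on how the set itself varied. Between pairs of feedback genes r ran from -0.887 (DUSP5 with ETV5) to 0.99 (DUSP4 with SPRY2, and SPRY2 with PHLDA1). DUSP4, SPRY2 and PHLDA1 were far lower in the SW480 library (40.1, 17.5 and 257 CPM) than in any other (at least 135, 53.2 and 742). How far that library sets these r values was not tested.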

How the data were processed

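The authors deposited 1 table per library with raw counts, a gene length and RPKM for 42713 entries; per the submitters' processing notes, HOMER and the hg19 build were used, and the sources used here name no aligner, counting tool or annotation. The deposited RPKM equal counts per listed length and table total for 100% of values above 20 counts (relative tolerance 1e-04). RPKM served for levels, counts for tests. Where a symbol repeated (256 symbols), the entry with the highest summed count was kept.

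The shFOXA2 and shNC libraries were compared in R 4.3.3 by edgeR 4.0.16 (robust quasi-likelihood F test after TMM scaling and the default expression filter), with Benjamini-Hochberg adjustment over all genes. The SE is the log2 fold change divided by the square root of F. Untreated lines were compared as ratios with exact 95% intervals, with a count of 0 set to 3. Alternatives used DESeq2 1.42.0, limma 3.58.1, other scalings and filters, a replicate block and libraries left out. On simulated data of 15920 genes for this comparison, edgeR recovered 21, 45, 50 and 50 of 50 genes changed 1.25-, 1.5-, 2- and 4-fold, and called 5 unchanged genes. The simulation changed few genes, all with a mean count of at least 50. It gave all genes the same spread between replicates and set no library apart. In the real libraries 39% of genes passed and replicate 1 stood apart, so these figures need not hold there.

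The feedback genes and lists were chosen with earlier results of these data known. Named from each list were up to 3 called genes by p-value, and up to 3 genes at least 4-fold apart between the untreated lines with at least 100 counts. SHOC2, MAP2K1, MAP2K2, MAPK3, IGF2 in the hairpin comparison and CCND1 were named after their values were seen. Gene locations are from GENCODE v29 on GRCh38, not the build in the notes. Sequence tables were read in Python 3.11.15. Some genes of the cascade are not reported here.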

Additional observations from a re-analysis of the deposited data

How the results depend on the processing

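The count of feedback genes that passed was 7 or 8 in every alternative, and ETV5 was the 1 gene called lower in each. It was 8 with the replicate block, and 6139 of all genes then passed in place of 6280. Same-numbered libraries had correlations of deviations of 0.0514, -0.0238 and 0.0681, so the numbers were not taken as pairs. DUSP4, DUSP5, DUSP6, ETV4, ETV5 and PHLDA1 passed in all alternatives. Without replicate 1 of both groups, an alternative chosen after seeing the data, 7 feedback genes passed, beside 5781 of 16048 genes tested. SPRED2 changed sign to 0.00442 without shFOXA2 replicate 1 and to 0.0613 without replicate 1 of both groups, the cause was not tested, and neither passed, with a range of -0.121 to 0.00442 over single libraries left out. With single libraries left out, the feedback genes that passed numbered 7 to 8, all genes 5299 to 5872, other phosphatases 1 to 2, adaptors 1 to 3, and substrates and immediate early genes 7 to 13. Without replicate 1 of both groups 0 adaptors passed by edgeR (1 at an unadjusted p under 0.05), and 15 substrates and immediate early genes did. At 4-fold in place of 2-fold, 3 feedback genes were apart between the untreated lines, all higher in SW620, beside 3291 of 21343 genes. Fewer genes reach a higher threshold. A limit of 3 counts is 0.401 CPM in the shallowest library and 0.0313 in the deepest, here by the library total without TMM scaling. No other scaling moved the median of all genes beyond -0.007 to 0.006 on the log2 scale.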
